A study of Mus musculus with 11 samples.

Results

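Interferon-stimulated genes are genes that cells switch on when interferons or foreign nucleic acids are sensed. The account covers 9 of them, chosen by symbol: Stat2, Irf9, Irf7, Ifit1, Ifit2, Ifit3, Isg15, Oasl2 and Zbp1. All 9 were found among the 55228 gene symbols of the count and TPM tables. Only Ifit2, Irf9, Stat2, Zbp1 and Oasl2 had enough counts to enter the test, which covered 16420 symbols. RNA was sequenced from 11 libraries of EN52.9.1 (CTCF-AID) mouse embryonic stem cells, grown in serum with leukaemia inhibitory factor. In this line the chromatin protein CTCF carries a degron and is degraded when the auxin indole-3-acetic acid is added at 500 µM. The groups were EV without auxin (EV untreated, 3 libraries), EV with auxin (EV auxin, 2 libraries), auxin-treated cells with FL CTCF reintroduced (FL auxin, 3 libraries) and auxin-treated cells with H373R CTCF reintroduced (H373R auxin, 3 libraries, titled ZF4). All groups share the degron line, and only the EV untreated group received no auxin. In EV auxin against EV untreated, auxin itself and loss of CTCF thus cannot be told apart. FL auxin and H373R auxin differ from EV untreated by auxin, loss of the degron-carrying CTCF and the reintroduced CTCF at once, which cannot be told apart either. The auxin-treated groups all received the same dose. Nothing in the labels says that replicates came from separate cultures, so p-values measure the spread between these libraries, which may be technical.

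In the textbook pathway, interferon binds its receptor, and the kinases JAK1 and TYK2 phosphorylate STAT proteins, STAT2 among them. STAT2 and IRF9 are subunits of the complex ISGF3, which binds the interferon-stimulated response element in the promoters of target genes. IRF7 amplifies the response by driving interferon genes, IFIT proteins bind viral RNA, ISG15 is a ubiquitin-like modifier, OASL2 belongs to the oligoadenylate synthetase family, and ZBP1 senses Z-form nucleic acids and can trigger cell death. Pluripotent stem cells are known for a muted interferon response.

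These promoters are shown because the response element pattern stands in 3 of the hardly detected genes and in neither scanned window of Ifit2. Ifit2 had the most reads among the genes that changed. Irf7, also hardly detected, held no match, and Stat2, with the most reads of all listed genes, held 1. An element outside the scanned windows, or one that departs from the pattern, would not be found. Each sequence is the 160 bases before the RefSeq start on the GRCm38.p6 build, written 5′ to 3′ on the strand of the gene. Capitals mark matches to GAAANNGAAA, searched on both strands, where overlapping matches are joined. The pieces are chr19:34640729-34640888 (plus strand) for Ifit1, chr19:34583369-34583528 (plus) for Ifit3, chr4:156200819-156200978 (minus) for Isg15 and chr19:34550534-34550693 (plus) for Ifit2.
Ifit1: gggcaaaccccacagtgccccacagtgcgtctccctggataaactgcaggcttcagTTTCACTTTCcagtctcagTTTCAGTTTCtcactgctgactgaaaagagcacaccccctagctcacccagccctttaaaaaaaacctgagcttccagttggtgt
Ifit3: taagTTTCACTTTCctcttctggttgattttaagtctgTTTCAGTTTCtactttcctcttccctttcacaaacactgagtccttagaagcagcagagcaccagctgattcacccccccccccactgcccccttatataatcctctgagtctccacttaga
Isg15: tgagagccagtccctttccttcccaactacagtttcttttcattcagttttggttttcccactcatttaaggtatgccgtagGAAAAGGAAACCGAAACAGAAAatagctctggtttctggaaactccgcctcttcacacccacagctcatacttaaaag
Ifit2: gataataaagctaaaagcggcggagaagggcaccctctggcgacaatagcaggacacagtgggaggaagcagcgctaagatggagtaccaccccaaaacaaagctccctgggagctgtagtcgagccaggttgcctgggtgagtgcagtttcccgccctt
Ifit1 and Ifit3 each held 2 matches and Isg15 held 3 overlapping ones, while neither of the 2 RefSeq windows of Ifit2 held any.

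Over windows of 300 bases (250 before to 50 after the start), a match to GAAANNGAAA was found in 3.99% of 27025 genes with a RefSeq window (3.44% of 32851 windows). Of the 8 listed genes with a window, 4 held one (Ifit1, Ifit3, Isg15 and Stat2), and so did 21 of 40 other interferon-stimulated genes. A short form of the CTCF motif, CCNNNAGNNGGC on either strand, was found in 9.84% of all genes, in none of the 8 and in 1 of the 40. A G-quadruplex pattern (4 runs of at least 3 G with loops of 1 to 7 bases, either strand) was found in 20.4% of all genes, in 7 of the 40 and in 2 of the 8, Ifit3 (the run of c near the end of its sequence) and Irf7. Loop bases could themselves be G, so a long stretch of G could be split into several runs, as happened in Ifit3 and Irf7. Zbp1 had no window in the RefSeq table. A match is a description of these letters only, and binding was not measured here.

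The libraries held 13465241 to 29902246 counts each, and 3 counts corresponded to 0.0999 to 0.228 CPM, the count scaled by library size. Ctcf RNA averaged 325 CPM in EV untreated, 361 in EV auxin, 337 in FL auxin and 321 in H373R auxin. It passed the test in none of the 6 comparisons. The degron acts on the protein, so Ctcf RNA does not check the labels for loss of CTCF. Reintroduction was not visible as higher Ctcf RNA. Against EV auxin the log2 fold change was -0.10 ± 0.06 in FL auxin and -0.17 ± 0.06 in H373R auxin (edgeR adjusted p 0.280 and 0.0683). The reason was not tested. EV untreated replicate 1 stood apart: its deviation from its group correlated across genes with GC content (r = 0.56, with genes that are not independent replicates). The 7 stem cell markers summed to between 4417 and 4950 CPM in every library. Summed primitive endoderm markers (6 of 6 tested) ranged from 15.4 to 17.8 CPM in EV untreated, 20.1 to 20.2 in EV auxin, 59.5 to 59.9 in FL auxin and 36.5 to 39.9 in H373R auxin. The 7 fibroblast markers (5 tested) summed to 59.0 to 70.7 CPM in the EV groups, 90.4 to 104 in FL auxin and 77.8 to 86.8 in H373R auxin, with Lum and Dcn at 0 to 2 counts per library. The 7 immune markers (3 tested) summed to 21.4 to 23.4, 24.4 to 27.8, 27.6 to 31.2 and 33.6 to 36.5 CPM in the same order of groups. Most of that sum was Cd68, and the defining leukocyte markers Ptprc and Adgre1 had 0 to 3 counts per library. These sums move with the groups, and their part in the results was not tested. In bulk RNA, fewer expressing cells and less RNA per cell cannot be told apart.

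After auxin in EV cells Zbp1 rose and Ifit2 fell, and Stat2 and Irf9 did not pass in any of the 6 comparisons. A gene was called where the edgeR quasi-likelihood test gave a Benjamini-Hochberg adjusted p under 0.05 over all 16420 tested genes, and the share of all genes called is given as background. Oasl2 entered the test only through auxin-treated libraries, where it is high, so its differences from EV untreated are described further on and left out of these counts. EV auxin against EV untreated called Zbp1 higher and Ifit2 lower, where 20.7% of all tested genes were called, 11.3% higher and 9.40% lower. FL auxin against EV auxin called Zbp1, where 24.5% were called, 11.1% higher and 13.4% lower. H373R auxin against EV auxin called none of the 5, and none had an unadjusted p under 0.05, where 21.7% of all tested genes were called. H373R auxin against FL auxin called none, with 2 at an unadjusted p under 0.05 (Zbp1 and Stat2), where 5.96% were called. DESeq2 and limma also called 0 in both of these comparisons. FL auxin against EV untreated called Ifit2 lower, where 36.9% were called, 17.7% higher and 19.2% lower. H373R auxin against EV untreated called Zbp1 higher and Ifit2 lower, where 44.4% were called, 22.3% higher and 22.1% lower.

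Among the transcription factors, Stat2 and Irf9 were well expressed and showed no called change. Stat2, which acts downstream of type I and type III interferon receptors, measured 40.1, 34.8 and 38.6 CPM in EV untreated, 37.1 and 39.8 in EV auxin, 36.6, 34.6 and 30.6 in FL auxin and 39.2, 37.3 and 38.0 in H373R auxin. The FL libraries lay lowest on average and the H373R libraries all lay above them. Irf9, the DNA-binding subunit of ISGF3, measured 7.72, 8.57 and 7.86 CPM in EV untreated, 7.76 and 7.14 in EV auxin, 8.11, 6.91 and 7.44 in FL auxin and 6.75, 8.16 and 7.69 in H373R auxin. All 4 groups of Irf9 overlapped. After auxin in EV cells the log2 fold change was 0.02 ± 0.08 (SE) for Stat2 and -0.11 ± 0.11 for Irf9 (edgeR quasi-likelihood adjusted p 0.883 and 0.527).

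**Figure D1:**
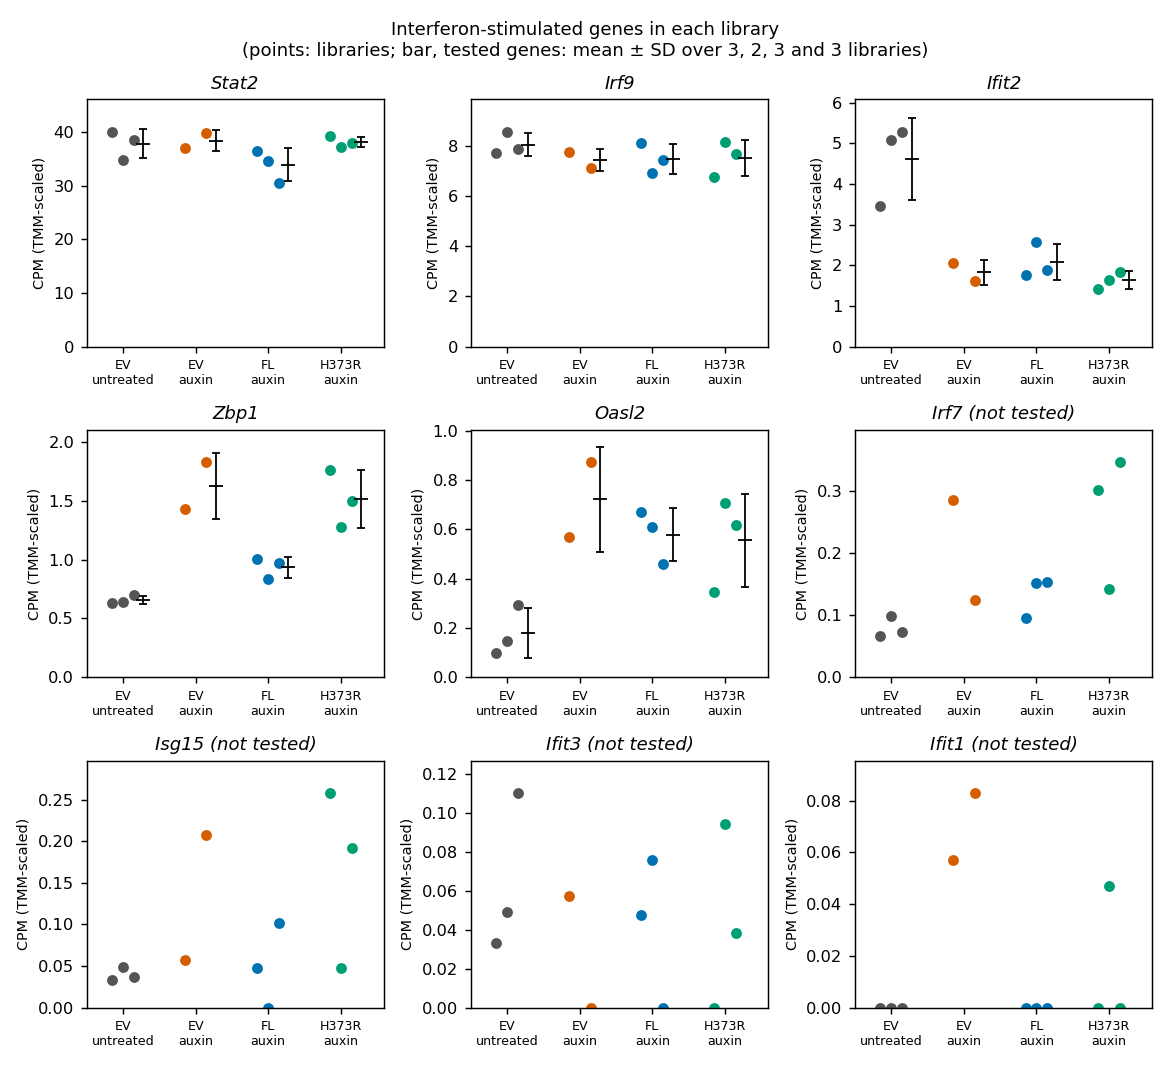
CPM of each of the 9 genes in each library, with every y axis starting at 0 on its own scale; black bars give the mean and SD of the 5 tested genes over 3, 2, 3 and 3 libraries. Ifit2 is highest in the 3 EV untreated libraries, Zbp1 and Oasl2 are lowest there, and the 4 untested genes stay under 0.35 CPM.

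Irf7, Isg15, Ifit3 and Ifit1 were at or near the detection limit in all groups and were not tested. Irf7 had 2, 2 and 2 counts in EV untreated, 5 and 3 in EV auxin, 2, 2 and 3 in FL auxin and 7, 3 and 9 in H373R auxin. Isg15 had 1, 1 and 1, then 1 and 5, then 1, 0 and 2, then 6, 1 and 5 counts in the same order. For both genes the highest count was in H373R auxin, though at least 1 library of that group had as few counts as a library of another auxin group. Pooled over libraries, H373R auxin held 19 Irf7 counts against 6 in EV untreated, a depth-corrected ratio of 3.49 (95% counting interval 1.34 to 10.7). For Isg15 the pooled counts were 12 against 3, a ratio of 4.41 (1.19 to 24.4). These were the 2 of 10 ratios computed for the pair of genes whose interval lay above 1. EV auxin against EV untreated gave 2.49 (0.757 to 8.70) for Irf7 and 3.73 (0.797 to 23.1) for Isg15, and H373R auxin against EV auxin gave 1.40 (0.587 to 3.71) and 1.18 (0.411 to 3.84). The intervals hold counting error alone, because counts were pooled over libraries and the spread between libraries is left out. PCR copies of a molecule were not marked, so even for counting error the intervals may be too narrow. Without the filter on low counts, edgeR gave Irf7 an adjusted p of 0.0397 and Isg15 one of 0.0945 in H373R auxin against EV untreated, and no other comparison of the 4 untested genes passed.

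Ifit3 had 0 to 3 counts in every library. Ifit1 had 0 counts in 8 of 11 libraries, a total of 3 counts in EV auxin and 1 count in H373R auxin replicate 2. The close paralog Ifit3b had no count in any library, and Ifit1bl1 and Ifit1bl2 reached at most 7 and 3 counts. All lie in 1 cluster on chromosome 19. Whether reads that map to several copies were counted is not given in the sources used here, so the levels of Ifit1 and Ifit3 are uncertain.

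Ifit2, which encodes an RNA-binding protein of the IFIT family, had the most counts of that family and was lower in all auxin-treated groups than in EV untreated. It measured 3.46, 5.09 and 5.29 CPM in EV untreated, 2.05 and 1.62 in EV auxin, 1.77, 2.58 and 1.89 in FL auxin and 1.42, 1.65 and 1.85 in H373R auxin. The 3 EV untreated libraries lay above all 8 auxin-treated libraries, and the 3 auxin-treated groups overlapped one another. Group means were 4.61 ± 1.00 CPM (SD, n = 3) in EV untreated, 1.84 ± 0.31 (n = 2) in EV auxin, 2.08 ± 0.44 (n = 3) in FL auxin and 1.64 ± 0.21 (n = 3) in H373R auxin. Ifit2 lies on the plus strand of chr19:34550694-34576419 (GRCm38, GENCODE M21), is protein-coding, and shares no exon base with another annotated gene.

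Ifit2 fell 2.52-fold after auxin in EV cells, by 1.33 ± 0.22 on the log2 scale (edgeR adjusted p 4.78e-04). It was lower than EV untreated in both reintroduction groups too. FL auxin lay 2.26-fold below EV untreated (log2 fold change -1.17 ± 0.20, adjusted p 2.86e-04) and H373R auxin 2.77-fold below it (-1.47 ± 0.19, adjusted p 1.98e-05). Against EV auxin, the log2 difference was 0.16 in FL auxin (95% interval -0.41 to 0.73, adjusted p 0.709) and -0.14 in H373R auxin (-0.70 to 0.43). H373R auxin against FL auxin gave -0.29 ± 0.24 (adjusted p 0.532). The 3 comparisons with EV untreated share the same control libraries.

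Zbp1 was called higher in EV auxin and H373R auxin than in EV untreated, and it was the 1 tested gene called lower in FL auxin than in EV auxin. It measured 0.632, 0.636 and 0.698 CPM in EV untreated, 1.43 and 1.83 in EV auxin, 1.00, 0.835 and 0.969 in FL auxin and 1.76, 1.27 and 1.5 in H373R auxin. EV auxin and H373R auxin overlapped, both lay above every FL auxin library, and every FL auxin library lay above every EV untreated one. The counts behind these values were 13 to 19 in EV untreated, 25 and 44 in EV auxin, 11 to 21 in FL auxin and 27 to 41 in H373R auxin. Zbp1 lies on the minus strand of chr2:173206612-173218923.

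After auxin, Zbp1 rose 2.50-fold in EV cells (log2 fold change 1.32 ± 0.23, edgeR adjusted p 7.47e-04). In H373R auxin it stood 2.30-fold above EV untreated (1.20 ± 0.21, adjusted p 2.56e-04), and against EV auxin it differed by -0.12 (95% interval -0.55 to 0.31, adjusted p 0.729). In FL auxin it fell by 0.80 ± 0.23 on the log2 scale against EV auxin (adjusted p 0.0208), and its 0.53 ± 0.24 against EV untreated did not pass (adjusted p 0.131). The direct comparison of the reintroduced proteins, H373R auxin against FL auxin, gave 0.68 (95% interval 0.23 to 1.12) without overlap between the libraries, but did not pass over all genes (adjusted p 0.0730, lowest over the alternatives 0.0524). The fall in FL auxin rested on few libraries: the adjusted p was 0.306 without EV auxin replicate 2 and 0.0536 without FL auxin replicate 2, and DESeq2 gave 0.106.

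Oasl2 was lowest in EV untreated. Its counts were 3, 3 and 8 in EV untreated, 10 and 21 in EV auxin, 14, 8 and 9 in FL auxin and 8, 15 and 16 in H373R auxin. In CPM these were 0.0999, 0.147 and 0.294, then 0.570 and 0.872, then 0.668, 0.608 and 0.459, then 0.344, 0.708 and 0.615. All auxin-treated libraries lay above all EV untreated ones, and the 3 auxin-treated groups overlapped. Oasl2 passed the filter (about 0.476 CPM in at least 2 libraries) only through its auxin-treated libraries. The gene lies on the plus strand of chr5:114896936-114912234, next to its paralog Oasl1.

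Oasl2 stood 4.02-fold above EV untreated in EV auxin (log2 fold change 2.01 ± 0.45, edgeR adjusted p 0.00515), and the adjusted p was 0.146 without EV auxin replicate 2. FL auxin stood 3.13-fold above EV untreated (1.65 ± 0.45, adjusted p 0.00968, or 0.0508 without FL auxin replicate 1) and H373R auxin 3.01-fold above it (1.59 ± 0.43, adjusted p 0.00722). The filter bears on these values, and in a fit of all genes without it edgeR gave adjusted p 2.06e-04, 0.00196 and 0.00123 in the same order. With limma on log2(TPM + 1) without a filter the FL and H373R differences did not pass (adjusted p 0.0619 and 0.0628). Against EV auxin the differences were -0.36 ± 0.39 in FL auxin and -0.42 ± 0.37 in H373R auxin (adjusted p 0.543 and 0.460). Oasl1 measured 2.14 ± 0.30, 2.58 ± 0.34, 1.93 ± 0.16 and 2.91 ± 0.56 CPM in the same order of groups and changed by 0.27 ± 0.19 after auxin in EV cells (adjusted p 0.365).

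**Figure D2:**
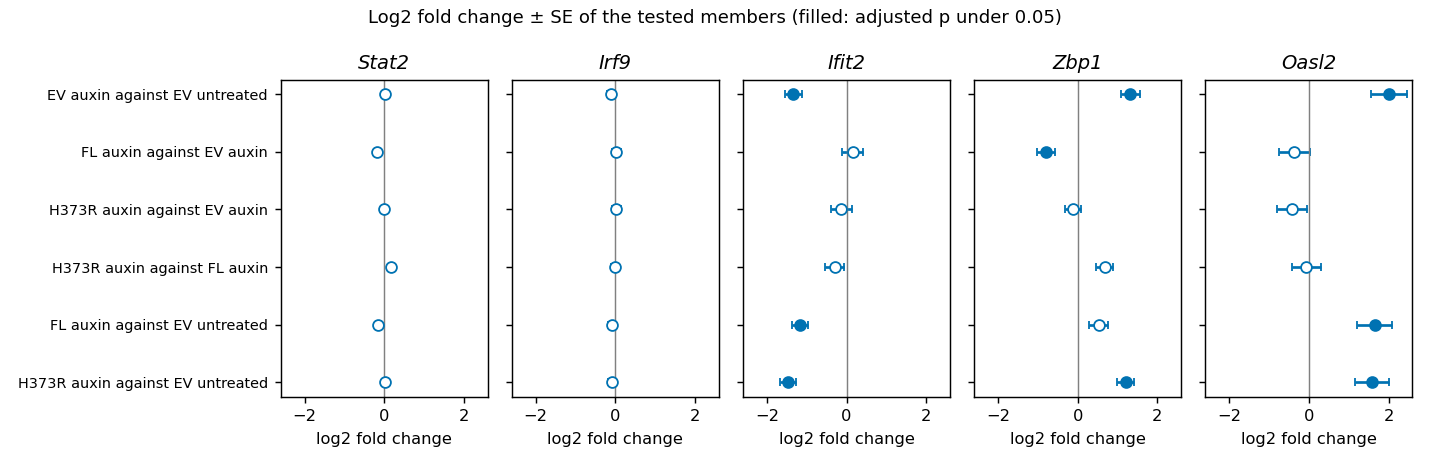
Log2 fold change ± SE of the 5 tested genes in each of the 6 comparisons, with filled points where the edgeR adjusted p was under 0.05. Ifit2 is filled in the 3 comparisons with EV untreated, always below 0, Oasl2 in the same 3, always above 0, and Zbp1 is the one gene filled for FL auxin against EV auxin.

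On the length-scaled TPM scale, where genes can be compared, Stat2 was highest with group means from 20.9 to 24.8 TPM, followed by Irf9 at 5.08 to 5.62 TPM. Ifit2 followed in EV untreated at 4.42 ± 0.98 TPM and came down to 1.79 ± 0.26, 1.93 ± 0.39 and 1.56 ± 0.20 in EV auxin, FL auxin and H373R auxin. Zbp1 went from 0.70 ± 0.05 TPM in EV untreated to 1.77 ± 0.34 in EV auxin, so that these 2 genes, far apart in untreated cells, overlapped in range in EV auxin and H373R auxin. Isg15 and Oasl2 averaged under 1 TPM and Irf7 under 0.3 TPM in every group.

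The tested genes varied in opposite directions among themselves. Over the 11 libraries, log2 CPM of Ifit2 ran against that of Zbp1 (Pearson r = -0.85) and of Oasl2 (r = -0.72), and Zbp1 ran with Oasl2 (r = 0.70). Stat2 and Irf9 were almost unrelated (r = -0.10). These values describe libraries that share groups and depth, and carry no test. The genes most like the mean standardised profile of the 5 tested genes were Lipc (hepatic lipase, r = 0.89), Mageb16 (0.89), Ppp2r2b (a phosphatase regulatory subunit, 0.88), Gm7932 (0.86) and 4732471J01Rik (0.85). That mean averages genes that ran against one another, so it is no profile common to the 5 tested genes. Of single genes, chosen after their values were seen, Rnmt (mRNA cap methyltransferase) followed Ifit2 most closely (r = 0.99) and Xpc (DNA damage recognition) followed Zbp1 (r = 0.98).

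Upstream of these genes, interferon RNA itself was at or near 0. Of 21 interferon genes of all 3 types, 19 had no count in any library, which allows up to 0.0999 to 0.228 CPM per library, and Ifnk and Ifnl2 reached at most 2 counts. The receptor side was expressed: all 9 genes listed for receptor chains and their kinases were tested, and after auxin in EV cells 4 rose and none fell (44.4% called against 20.7% of all tested genes), with a median log2 fold change of 0.30 beside 0.01 over all tested genes. Jak1, the kinase shared by interferon receptors, rose from 96.5 ± 4.3 to 126 ± 1.2 CPM (0.39 ± 0.05, adjusted p 1.01e-04). Ifnlr1, the specific chain of the type III receptor, rose from 8.35 ± 0.13 to 11.8 ± 0.32 CPM (0.50 ± 0.09, adjusted p 0.00142). It was 7.15 ± 0.86 CPM in FL auxin and 10.5 ± 0.18 in H373R auxin, and H373R auxin lay above FL auxin by 0.54 ± 0.09 (adjusted p 0.00237).

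Ifngr1, a chain of the type II receptor, rose from 8.82 ± 0.35 CPM in EV untreated to 11.8 ± 0.37 in EV auxin (0.42 ± 0.09, edgeR adjusted p 0.00243), and measured 11.8 ± 0.25 in FL auxin and 12.1 ± 0.56 in H373R auxin. The kinases Tyk2 and Jak2 did not pass in that comparison. Tyk2 measured 27.7 ± 2.7 and 29.8 ± 4.4 CPM without and with auxin in EV cells (adjusted p 0.479), and H373R auxin against FL auxin gave 0.26 ± 0.09 (adjusted p 0.0948). Jak2, the kinase of the type II receptor, measured 15.2 ± 2.4 and 13.2 ± 0.74 CPM in the EV groups, and H373R auxin against FL auxin gave -0.23 ± 0.12 (adjusted p 0.298).

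Of the 11 tested sensors and adaptors (of 12), 2 rose and none fell after auxin in EV cells, with a median of 0.10, and this 18.2% lay near the 20.7% of all tested genes called. Cgas, the cytosolic DNA sensor, rose from 5.22 ± 0.18 to 7.74 ± 0.14 CPM (0.57 ± 0.11, adjusted p 0.00169) and was lower in FL auxin than in EV auxin (-0.41 ± 0.11, adjusted p 0.0170). Tlr3, the endosomal sensor of double-stranded RNA, rose from 1.31 ± 0.45 to 2.32 ± 0.06 CPM (adjusted p 0.0212). Irf3, the factor that these sensors activate, measured 11.1 ± 2.1 and 13.2 ± 0.22 CPM (adjusted p 0.234). With edgeR, none of the 11 passed in H373R auxin against FL auxin, where only 5.96% of all tested genes were called. There Ikbke (a kinase of IRF3) gave 0.50 ± 0.19 (adjusted p 0.153) and Ddx58 (the RNA sensor RIG-I) gave -0.18 ± 0.09 (adjusted p 0.251).

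Among the partners of ISG15, 3 of 5 genes were tested and 1 rose after auxin in EV cells, where 11.3% of all tested genes rose. It was Trim25, a ligase for ISG15 and ubiquitin, from 216 ± 9.9 to 245 ± 6.8 CPM (0.18 ± 0.05, adjusted p 0.0207). Trim25 was lower in FL auxin (217 ± 5.3 CPM) and H373R auxin (215 ± 5.4) than in EV auxin (adjusted p 0.0230 and 0.0176). Ube2l6, the conjugating enzyme, measured 1.84 to 2.11 CPM on average, and Herc6, the main mouse ISG15 ligase, measured under 1 CPM on average. Of the 7 tested negative regulators (of 8), 1 rose after auxin in EV cells, a share of 14.3% near the 11.3% of all tested genes. It was Socs3, from 352 ± 19 to 411 ± 7.2 CPM (0.22 ± 0.05, adjusted p 0.00804). Irf2, a repressor of the response element, gave 1.06 ± 0.35 (adjusted p 0.0502) from 0.294 ± 0.085 to 0.589 ± 0.107 CPM. Its EV untreated libraries (0.233 to 0.392 CPM) lay under the filter of about 0.476 CPM. Irf2 thus entered the test only through auxin-treated libraries, as Oasl2 did, and the filter bears on its values.

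The 5 cell death partners of ZBP1 were all expressed, and 1 was called after auxin in EV cells, a share near the 20.7% of all tested genes. Casp8, the protease that restrains necroptosis, rose from 7.29 ± 0.93 to 10.5 ± 1.1 CPM (0.53 ± 0.11, edgeR adjusted p 0.00312) and was lower in FL auxin than in EV auxin (-0.37 ± 0.11, adjusted p 0.0272). Ripk3, the kinase that ZBP1 binds, measured 15.3 ± 1.1 and 14.8 ± 0.95 CPM in the EV groups, and it was higher in FL auxin than in EV auxin (0.55 ± 0.11, adjusted p 0.00242). Mlkl, which permeabilises the membrane, measured 1.90 to 2.70 CPM on average and passed in no comparison. Ripk1 and Fadd gave 0.25 ± 0.09 and 0.27 ± 0.11 after auxin in EV cells (adjusted p 0.0692 and 0.0955).

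The wider set of 48 other interferon-stimulated genes leaned upward after auxin in EV cells. Of its 37 tested genes 14 rose and 2 fell, 37.8% and 5.41% against 11.3% and 9.40% of all tested genes, with a median log2 fold change of 0.33 beside 0.01. Some of the 37 entered the test only through auxin-treated libraries, as Oasl2 did. Gbp3 and Irgm1 are examples, at 0.110 to 0.399 and 0.300 to 0.477 CPM in EV untreated. In EV auxin they measured 0.540 to 0.798 and 1.25 to 1.41 CPM. Such genes can hardly be called lower, and the shares were not computed without them. Dtx3l and Parp9, which encode partners in a ligase complex, rose from 17.2 ± 1.0 to 29.0 ± 0.78 CPM (0.75 ± 0.08, edgeR adjusted p 4.82e-06) and from 15.9 ± 1.4 to 26.2 ± 3.2 CPM (0.72 ± 0.11, adjusted p 2.02e-04). Irf1, a transcription factor also driven by type II interferon, rose from 29.6 ± 0.56 to 39.9 ± 0.35 CPM (0.43 ± 0.06, adjusted p 1.94e-04). In FL auxin against EV auxin, 3 of the 37 were higher and 9 lower, 8.11% and 24.3% against 11.1% and 13.4% of all tested genes (median -0.20 beside -0.01), with Dtx3l at -0.47 ± 0.08 and Irf1 at -0.27 ± 0.07 (adjusted p 6.14e-04 and 0.00748). In H373R auxin against EV auxin 3 were higher and 5 lower, 21.6% called against 21.7% of all tested genes (median -0.12), Dtx3l and Irf1 among the lower ones at -0.45 ± 0.08 and -0.28 ± 0.06. These comparisons share the EV auxin libraries.

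Directly between the reintroduced proteins, 3 of the 37 were higher and 1 lower in H373R auxin than in FL auxin, 10.8% called against 5.96% of all tested genes, with a median of 0.01. Oas3, an oligoadenylate synthetase, measured 11.1 ± 0.96 CPM in FL auxin and 14.8 ± 1.1 in H373R auxin (0.42 ± 0.09, edgeR adjusted p 0.00870). Ifitm1, a membrane protein that restricts virus entry, measured 53.1 ± 4.9 and 66.2 ± 1.8 CPM (0.32 ± 0.07, adjusted p 0.0198). Gbp2, a guanylate-binding protein, went the other way, from 5.12 ± 0.56 in FL auxin to 3.42 ± 0.14 CPM in H373R auxin (-0.57 ± 0.13, adjusted p 0.0176). Without EV untreated replicate 1 these counts became 7 higher and 2 lower, while calls over all tested genes went from 979 to 2323. Against EV untreated, 11 were higher and 3 lower in FL auxin, 37.8% called against 36.9% of all tested genes. By direction these were 29.7% higher and 8.11% lower, against 17.7% and 19.2% of all tested genes. In H373R auxin 16 were higher and 5 lower, 56.8% called against 44.4%. By direction these were 43.2% higher and 13.5% lower, against 22.3% and 22.1% of all tested genes. Genes that entered the test only through auxin-treated libraries, Gbp3 and Irgm1 among them, can hardly be called lower here either. The filter thus favours calls in the higher direction in both comparisons, and the shares were not computed without such genes.

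**Figure D3:**
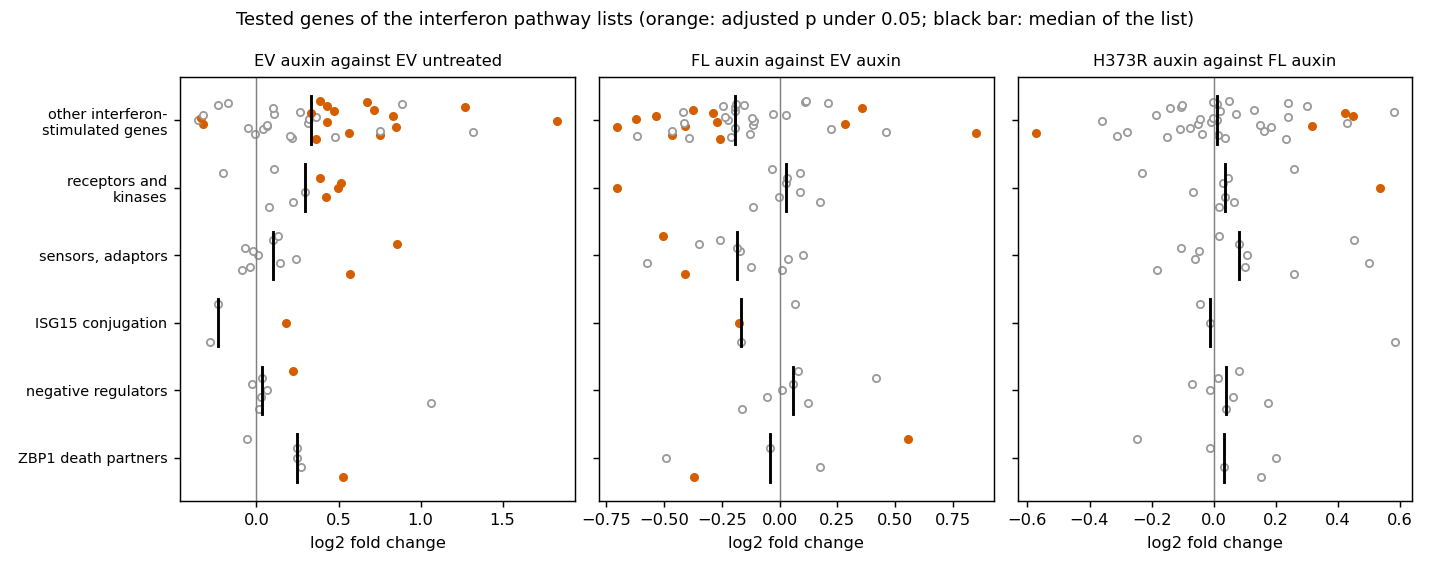
Log2 fold changes of the tested genes of 6 lists around the 9 genes in 3 comparisons; each point is a gene, orange where the edgeR adjusted p was under 0.05, and black bars are list medians. The other interferon-stimulated genes hold 14 orange points above 0 and 2 below it after auxin in EV cells, and 3 above and 9 below for FL auxin against EV auxin.

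Because CTCF bounds chromatin domains, the tested genes whose starts lie within 250 kb of a changed listed gene were set beside it, a rule chosen after the files were seen. Near Ifit2 the 1 tested neighbour, Lipa, gave -0.20 ± 0.10 after auxin in EV cells (edgeR adjusted p 0.205). Near Zbp1, 1 of 4 tested neighbours was called, where 20.7% of all tested genes were called. It was Ctcfl, the germline paralog of Ctcf, which fell by 0.86 ± 0.17 on the log2 scale (adjusted p 0.00206). Its start lies at -99.4 kb from that of Zbp1 on the chromosome. It stood below EV untreated in FL auxin and H373R auxin as well, at -0.97 ± 0.16 and -0.77 ± 0.14 (adjusted p 2.43e-04 and 4.87e-04), and FL auxin against EV auxin gave -0.11 ± 0.20 (adjusted p 0.783). The other 3 tested neighbours of Zbp1 did not pass after auxin in EV cells. Of these, Pmepa1 was higher in FL auxin and H373R auxin than in EV auxin (0.43 ± 0.07 and 0.38 ± 0.07, adjusted p 3.87e-04 and 0.00116) and than in EV untreated (0.51 ± 0.06 and 0.46 ± 0.06, adjusted p 1.15e-05 and 1.51e-05). Rae1 was higher than EV untreated in both reintroduction groups (0.17 ± 0.04 and 0.23 ± 0.04, adjusted p 0.00545 and 4.70e-04). Against EV untreated, 2 of the 4 neighbours were thus higher and 1 lower in FL auxin and in H373R auxin. Of all tested genes, 36.9% and 44.4% were called there. Near Oasl2, 2 of 13 tested neighbours fell, Unc119b by 0.32 and 1500011B03Rik by 0.25 (adjusted p 0.00357 and 0.0109), and none rose, where 9.40% of all tested genes fell.

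**Figure D4:**
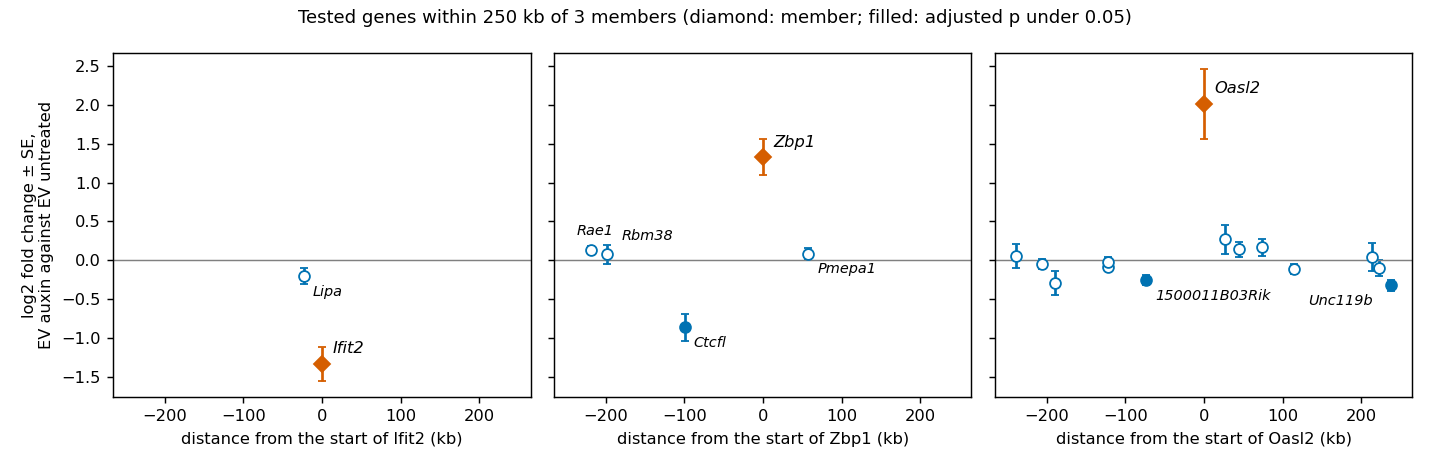
Log2 fold change ± SE after auxin in EV cells of tested genes within 250 kb of Ifit2, Zbp1 and Oasl2, plotted by distance between gene starts in kb; diamonds are the listed genes and filled circles have an edgeR adjusted p under 0.05. Of the 1, 4 and 13 neighbours, Ctcfl lies farthest from 0, at -0.86 beside Zbp1 at 1.32.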

How the data were processed

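The authors deposited raw counts per gene symbol and TPM for the same 11 libraries. Per the labels' protocols, strand-marking libraries were sequenced on a NovaSeq, and the submitters' processing notes name featureCounts, Subread 2.0.3, DESeq2 and mm10 (GRCm38). The aligner, annotation and strand setting are not given in the sources used here, so reads of overlapping genes are uncertain (Irf9 shares 123 exon bases with Rnf31 and Irf7 shares 45 with Phrf1). Of the deposited columns, 2 matched none of the 11 libraries and were not used.

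The counts entered edgeR 4.0.16 (R 4.3.3) with TMM scaling, filterByExpr by group, a group-means model over all 11 libraries, the quasi-likelihood F test and Benjamini-Hochberg adjustment over 16420 genes with a threshold of 0.05. CPM are TMM-scaled, with the SD over libraries. Log2 CPM used a prior count of 2. The deposited TPM were used to compare levels between genes and with limma 3.58.1. Alternatives were DESeq2 1.42.0, limma on log2(TPM + 1) for genes reaching 1 TPM in 2 libraries, pseudocount 0.1, no filter, at least 10 counts in 2 libraries, RLE and upper quartile scaling, robust dispersion, only the libraries compared, a replicate block, GC and length offsets, an adjusted p under 0.01 and leaving out each library. Positions are from GENCODE M21 and promoters from RefSeq, both of build GRCm38. The scripts were tested on simulated data.

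The members and lists were chosen with earlier results of these data known. Named were all members, their paralogs, per list up to 3 genes of smallest adjusted p in EV auxin against EV untreated and in H373R auxin against FL auxin, and the 5 genes most like the members. A gene that this rule named is not reported here and was left out of its list. The replicate numbers were not used as pairs in the main model, although 7 of 11 libraries correlated best with a library of their own number. Whether the numbers mark pairs was not settled, and a fit with them as a block is given below.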

Additional observations from a re-analysis of the deposited data

How the results depend on the processing

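The falls of Ifit2 against EV untreated and the rises of Zbp1 in EV auxin and H373R auxin passed under all 25 alternatives, with log2 fold changes from -1.67 to -0.88 and from 0.61 to 1.47. The number of listed genes called, Oasl2 included, was 1 in FL auxin against EV auxin, and 0 with DESeq2 and at an adjusted p under 0.01, and from 0 to 1 when 1 library was left out. In FL auxin against EV untreated it was 2, and 1 with only the libraries compared and with limma on TPM at either pseudocount or without its filter. The TPM filter keeps Isg15 and drops Oasl2. Stat2 passed in FL auxin against EV untreated under 4 alternatives. Of 30 pairs of a tested gene and a comparison, 20 passed under no setting, and 11 of these changed sign in at least 1 setting. Irf9 turned sign with limma on log2(TPM + 1), with or without the filter, and at pseudocount 0.1: -0.050 and -0.058 for FL auxin and -0.019 and -0.023 for H373R auxin against EV auxin, and 0.030 and 0.036 for H373R auxin against FL auxin, where upper quartile scaling gave 0.0013 and no filter 0.0047. Stat2 in H373R auxin against EV auxin became 0.0022 without a filter, 0.0020 with at least 10 counts in 2 libraries, 0.0037 with the replicate block and 0.0083 with offsets and block. When 1 library was left out, some ranges crossed 0. For Stat2 they were -0.043 to 0.072 after auxin in EV cells, -0.060 to 0.044 in H373R auxin against EV auxin and -0.037 to 0.043 against EV untreated. For Irf9 they were -0.040 to 0.079 in FL auxin and -0.042 to 0.096 in H373R auxin against EV auxin, and -0.060 to 0.062 in H373R auxin against FL auxin. For Ifit2 they were -0.012 to 0.32 in FL auxin and -0.32 to 0.024 in H373R auxin against EV auxin. For Oasl2 they were -0.59 to 0.027 in FL auxin against EV auxin and -0.24 to 0.18 in H373R auxin against FL auxin, and for Zbp1 -0.27 to 0.091 in H373R auxin against EV auxin.

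With the replicate number as a block the counts of listed genes called, Oasl2 included, stayed 3, 1, 0, 0, 2 and 3. Oasl2 adds to the 3 comparisons with EV untreated, although it entered the test only through auxin-treated libraries. Same-numbered libraries of different groups correlated by -0.09 to 0.28 over 15 pairs, and 7 of 11 libraries correlated best with their own number. The replicate block moved calls over all genes from 3392 to 3197 in EV auxin against EV untreated. Without EV untreated replicate 1 the counts of listed genes called, Oasl2 included, were again 3, 1, 0, 0, 2 and 3. Calls over all genes were then 5444 in EV auxin against EV untreated. In H373R auxin against FL auxin they went from 979 to 2323, or 2170 with GC and length offsets, where other interferon-stimulated genes lower went from 1 to 2. The cause was not tested. The filter left genes under about 0.476 CPM out of the test.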
